A study of Arabidopsis thaliana with 6 samples.

Results

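The ascorbate-glutathione cycle was followed through 10 genes of Arabidopsis thaliana that encode its enzymes: 4 ascorbate peroxidases (APX1, APX2, SAPX and TAPX), the monodehydroascorbate reductase MDAR1, 3 dehydroascorbate reductases (DHAR1, DHAR2 and DHAR3) and 2 glutathione reductases (GR1 and GR2). They were chosen by locus, and a probe counted as theirs when its transcript accession belonged to that locus. Of the 10 genes, 9 had a probe, with 20 probes among the 43603 of the array and 9 of the 25383 genes it could be matched to. No probe matched DHAR1 (AT1G19570) by accession, and it is not analysed here. A probe of it may be among the 9318 that matched no locus.

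The plants were wild type, and their ecotype is not given in the sources used here. Both groups were raised on soil with sand at 20 °C by day and 16 °C by night, 80% relative humidity and light of 300 µmol per square metre and second. Rosettes of the control group stood in ambient air and those of the other group in ambient air to which 3 ppm nitric oxide (NO) had been added around the clock, and whole rosette leaves were taken at 4 weeks. The labels describe 3 independent experiments, and each group has 3 arrays. They say neither how many plants made up a sample nor how much NO the ambient air held.

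The cycle removes hydrogen peroxide with electrons from NADPH. Ascorbate peroxidase reduces the peroxide and oxidises ascorbate, whose products are turned back into ascorbate by monodehydroascorbate reductase and, at the cost of glutathione, by dehydroascorbate reductase, and glutathione reductase then restores the glutathione. In leaves the reactions run side by side in chloroplasts, cytosol, peroxisomes and mitochondria, and some isoforms serve more than a single compartment. The reactions of the chloroplast handle peroxide formed in photosynthesis.

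Each array carried 61657 gene spots, none of them saturated. The share well above background was 65.2% to 66.8% in the ambient group and 68.5% to 72.0% in the NO group. Precision is limited by the number of arrays. The ambient arrays lay on one slide and the NO arrays on another, scanned at a different time, so slide and treatment cannot be told apart in any comparison below. Of 10 probes for spiked-in control RNA, 7 were well above background on all arrays of a group, and all 7 were brighter on every NO array, by 11.0 to 54.0 times. Signals are given as multiples of the 75th percentile of the same array ("relative signal"), which puts arrays but not different probes on one scale.

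TAPX, which encodes the ascorbate peroxidase bound to the thylakoid membrane of chloroplasts, was 2.24-fold higher in 3 ppm NO. GR1, which encodes the glutathione reductase of cytosol and peroxisomes, was 1.32-fold lower, and DHAR2, which encodes a cytosolic dehydroascorbate reductase, was 1.21-fold lower. The changes of APX1, SAPX, MDAR1, DHAR3 and GR2 did not pass the test, and APX2 was too dim to be tested. So 3 of the 8 tested genes passed an adjusted p of 0.05 in limma, 1 higher and 2 lower, where 58.2% of all 18614 tested genes passed (25.8% higher and 32.4% lower). The median log2 change over the 8 genes was -0.071, beside -0.049 over all tested genes, and their median absolute log2 change was 0.101, beside 0.261.

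**Figure D1:**
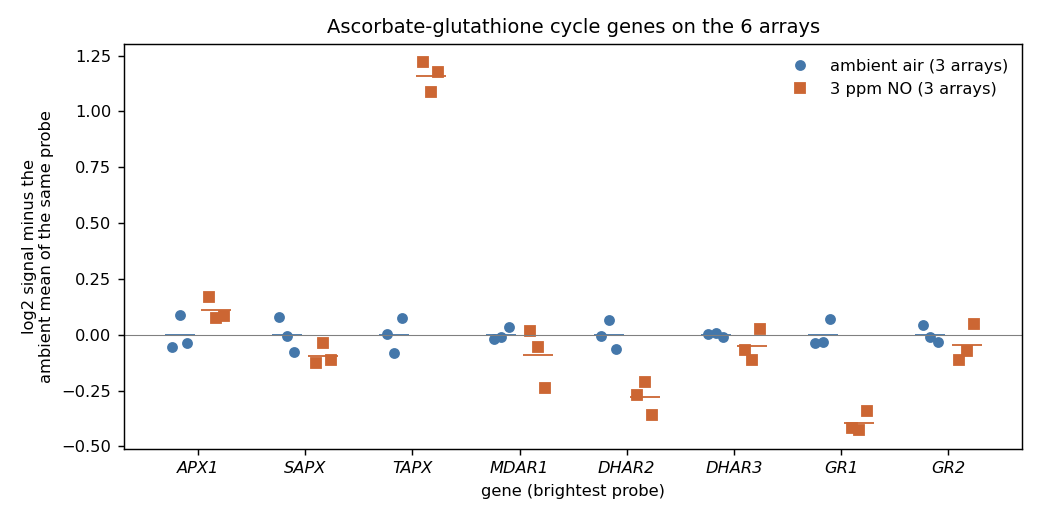
Log2 signal of the brightest probe of each tested gene on each array, with the mean of the 3 ambient arrays of that probe set to 0; circles are ambient arrays, squares are NO arrays and short lines are group means (n = 3 per group). The NO arrays lie above all ambient arrays for TAPX and below all of them for DHAR2 and GR1, and the groups overlap for the other 5 genes.

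Of the ascorbate peroxidases, TAPX (AT1G77490) had relative signals of 1.39, 1.31 and 1.46 in ambient air and 3.23, 2.94 and 3.13 in NO. Every NO array was above every ambient array. The log2 change was 1.16 ± 0.06 (SE, n = 3 per group), with a 95% interval of 2.01-fold to 2.48-fold and an adjusted p of 2.08e-05 in limma. Of all tested genes 95.04% changed by less, in either direction, and TAPX was the only one of the 8 past 2-fold, a size that 6.98% of all tested genes reached with a passing test.

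SAPX (AT4G08390) encodes the soluble chloroplast isoform of the stroma. Its brightest probe had relative signals of 2.46, 2.32 and 2.21 in ambient air and 2.13, 2.26 and 2.15 in NO, so the groups overlapped. This was a log2 change of -0.094 ± 0.059 (95% interval 0.850-fold to 1.03-fold, adjusted p = 0.213 in limma). A second, dimmer probe to the same transcript pointed the other way, at 0.25 ± 0.10 with an adjusted p of 0.0818 over all probes, and its groups overlapped too.

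The 2 chloroplast peroxidases were also compared within arrays, each by its brightest probe. The log2 value of SAPX minus that of TAPX fell by 1.25 from the ambient to the NO arrays, with no overlap between groups and an SD of 0.132 within the ambient group and 0.117 within the NO group. The exact two-sided permutation test gave p = 0.1, the smallest value that 3 arrays against 3 allow, for this pair and for the other two pairs compared (p = 0.1 after Benjamini-Hochberg adjustment over the 3), so this design cannot pass the threshold with it.

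APX1 (AT1G07890) encodes the main cytosolic isoform and was covered by 7 probes. On the brightest one its relative signals were 40.1, 44.2 and 40.6 in ambient air and 46.7, 43.8 and 44.0 in NO. The groups overlapped through 1 ambient array. The log2 change was 0.11 ± 0.06 (95% interval 0.977-fold to 1.19-fold, adjusted p = 0.157 in limma), and its sign turned with quantile normalization, where APX1 passed as lower at -0.26 (adjusted p = 0.00593 in limma). With scaling to the 75th percentile all 7 probes had a fitted change above 0. They were read on the same arrays and are not independent. The brightest and the next brightest fell below 0 with quantile normalization (-0.26 and -0.13) and with cyclic loess (-0.012 and -0.0049). The others stayed above 0 under both. Groups did not overlap for 3 of the 7 probes. The share over all probes was not computed. Over all tested genes with a value on every array, each taken by its brightest probe, this share was 66.8%.

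One of those 3, designed to the APX1 transcript NM_001084013, passed over all probes. Its relative signals were 0.172, 0.188 and 0.168 in ambient air and 0.229, 0.192 and 0.209 in NO, so the lowest NO array lay just above the highest ambient one. The change was 1.19-fold (adjusted p = 0.0417 in limma), and it passed in 6 of 16 other settings, with an adjusted p from 0.0239 to 0.487. The call was lost without ambient replicate 1 or 3 and without NO replicate 1 or 3 (adjusted p = 0.107, 0.120, 0.108 and 0.0852 in limma). Set against SAPX, each by its brightest probe, the log2 value of APX1 rose by 0.20 from ambient to NO with no overlap between groups. The dimmer SAPX probe, at 0.25 by itself, was not used in this difference, which did not hold under every normalization. That difference was -0.18 by quantile normalization and 0.046 by cyclic loess, where the exact two-sided permutation test gave p = 0.7.

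APX2 (AT3G09640) encodes a further cytosolic isoform, known for its induction by heat and excess light. Its probe was well above background on 0 of 3 ambient arrays and on 1 of 3 NO arrays, the brightest array of the series. Relative signals were 0.00482, 0.0102 and 0.00610 in ambient air and 0.00418, 0.0118 and 0.00377 in NO, and the lowest signals that counted as well above background on these arrays were 0.0105 to 0.0242. No fold change can be given, and APX2 was not tested. Over all tested genes 32.4% were lower and 25.8% higher. Of 8 tested genes known to respond to heat or excess light, 4 were lower, 1 was higher and 3 did not pass.

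Among those, ELIP1 and ELIP2, which encode early light-induced proteins of the thylakoid, were 3.36-fold and 3.09-fold lower (adjusted p = 2.39e-05 and 1.71e-05 in limma). The chaperone gene HSP70-4 (HSP70, AT3G12580) was 1.78-fold lower. Chosen after their values were seen, the zinc finger gene ZAT10 was the other that fell, by 0.56 on the log2 scale, and the galactinol synthase gene GOLS1 was the single one that rose, by 0.37.

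Monodehydroascorbate reductase returns the first oxidation product of ascorbate to ascorbate. MDAR1 (AT3G52880), which encodes a peroxisomal form, had relative signals of 8.89, 8.94 and 9.22 in ambient air and 9.13, 8.69 and 7.65 in NO. The groups overlapped, and NO replicate 3 was the lowest of all 6 arrays on this probe and on both of its other probes. Its log2 change of -0.091 ± 0.074 had a 95% interval of 0.831-fold to 1.06-fold (adjusted p = 0.322 in limma), and with normexp background correction it was 0.016.

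Dehydroascorbate reductase uses glutathione to recover ascorbate from dehydroascorbate. DHAR2 (AT1G75270) had relative signals of 1.96, 2.06 and 1.88 in ambient air and 1.63, 1.70 and 1.53 in NO, with every NO array below every ambient array. The log2 change was -0.28 ± 0.06 (95% interval 0.744-fold to 0.911-fold, adjusted p = 0.00741 in limma). Its second probe fell as well, 1.28-fold (adjusted p = 0.0345 over all probes), from 0.167, 0.166 and 0.154 to 0.150, 0.120 and 0.114. Of all tested genes 53.0% changed by less than DHAR2.

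DHAR3 (AT5G16710) encodes the chloroplast form. Its relative signals were 11.6, 11.6 and 11.5 in ambient air and 11.0, 10.68 and 11.7 in NO, and 1 NO array lay above the ambient ones while the others lay below them. A log2 change of -0.052 ± 0.053 was fitted (95% interval 0.884-fold to 1.05-fold, adjusted p = 0.430 in limma).

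Glutathione reductase closes the cycle by reducing oxidised glutathione with NADPH. GR1 (AT3G24170) had relative signals of 11.6, 11.7 and 12.5 in ambient air and 8.91, 8.85 and 9.41 in NO. The groups were well apart, at a log2 change of -0.40 ± 0.05 (95% interval 0.694-fold to 0.832-fold, adjusted p = 0.00105 in limma). Of all tested genes 66.7% changed by less. A dimmer second probe of GR1 was lower on every NO array as well, at -0.15 ± 0.07, but did not pass over all probes (adjusted p = 0.131 in limma).

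GR2 (AT3G54660, listed as GR in RefSeq) encodes the form of chloroplasts and mitochondria. Its relative signals were 8.61, 8.28 and 8.15 in ambient air and 7.70, 7.93 and 8.63 in NO, so the groups overlapped. The log2 change was -0.047 ± 0.060 (95% interval 0.877-fold to 1.07-fold, adjusted p = 0.530 in limma). Within arrays, the log2 value of GR1 minus that of GR2 fell by 0.35 from ambient to NO, without overlap between the groups (exact p = 0.1, as above). This took the brighter probe of GR1, while the dimmer one changed by -0.15.

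Fitted probe by probe, 5 of the 19 tested probes of these genes passed, 2 higher and 3 lower, where 53% of all 29702 tested probes did (25.9% higher and 27.1% lower). The 3 lower ones were both probes of DHAR2 and the brighter probe of GR1, and the 2 higher ones were those of TAPX and of the APX1 transcript described above. Over 16 other settings 1 to 3 of the tested probes passed as higher and 1 to 5 as lower. Groups did not overlap for 3 of the 8 genes, where 66.8% of all tested genes with a value on every array had groups that did not overlap.

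**Figure D2:**
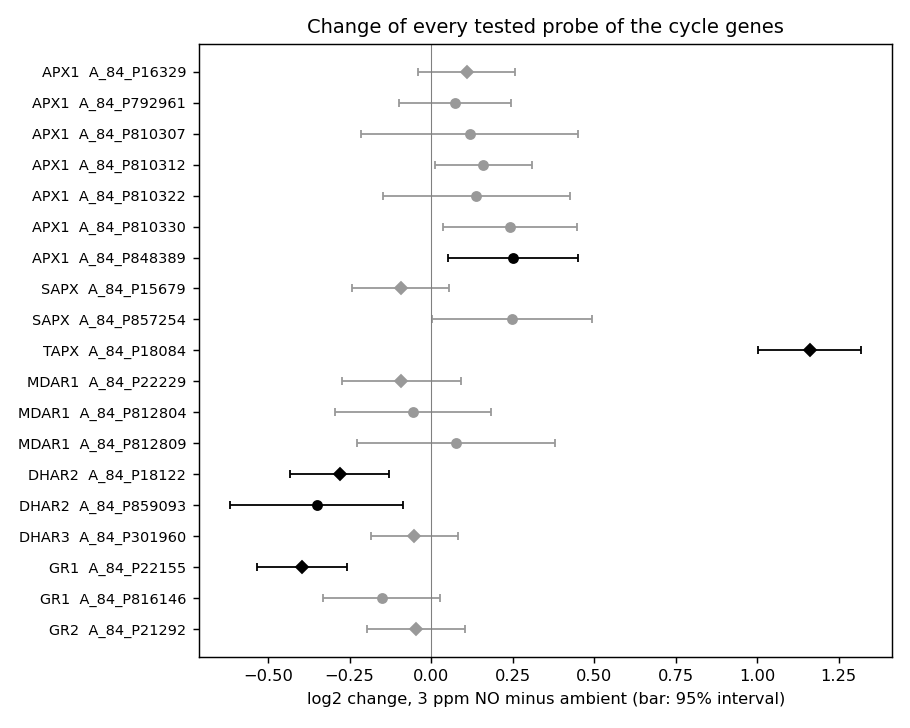
Log2 change from ambient air to 3 ppm NO of each of the 19 tested probes with its 95% interval from limma (n = 3 arrays per group); diamonds mark the brightest probe of a gene and black marks an adjusted p under 0.05 over all probes. TAPX stands at 1.16, the probes of APX1 all lie right of 0, and the 2 probes of SAPX lie on opposite sides of it.

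The reported values of TAPX and GR1 passed under each of 17 other settings of normalization, filtering, probe choice and replicate handling. Their log2 changes were 1.09 to 1.20 for TAPX and -0.48 to -0.27 for GR1. TAPX rests on 1 probe, so the choice of probe could not change its value. DHAR2 was below 0 in all 17, from -0.35 to -0.24, and passed in 16 of them, with an adjusted p up to 0.105 in limma. SAPX, MDAR1 and GR2 did not pass in any of them. APX1 and DHAR3 each passed once, as lower, with quantile normalization, which brought the count of lower genes to 4.

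**Figure D3:**
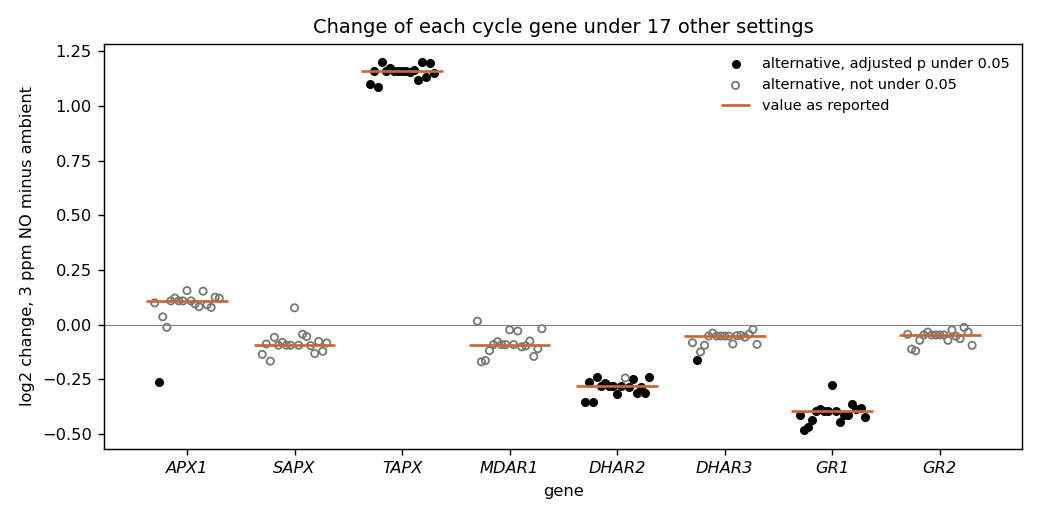
Log2 change from ambient air to 3 ppm NO of each tested gene under 17 other settings (circles, filled where the adjusted p was under 0.05) beside the reported value (line). TAPX stays between 1.09 and 1.20, and APX1 is the only gene whose filled circle lies on the other side of 0 from its line, at -0.26.

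The relatives of these enzymes included larger changes. The counts in the lists below stand beside 25.8% higher and 32.4% lower over all tested genes. Of 4 other genes of the ascorbate peroxidase family, 2 were higher, 1 was lower and 1 did not pass. TL29, also called APX4, encodes a thylakoid lumen protein of the peroxidase family, and its relative signals were 0.481, 0.545 and 0.511 in ambient air and 2.45, 2.48 and 2.57 in NO. Its log2 change of 2.29 ± 0.06, or 4.88-fold, had an adjusted p of 1.74e-06 in limma. APX5 was 1.47-fold higher and APX6 1.17-fold lower (adjusted p = 0.00322 and 0.0115).

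Of 4 other monodehydroascorbate reductase genes, 2 were higher and 2 did not pass, where 25.8% of all tested genes were higher and 32.4% lower. Over the 17 other settings 1 to 2 of the 4 were higher and 0 to 1 lower. MDAR3 (AT3G09940), a dim probe, had relative signals of 0.0298, 0.0375 and 0.0480 in ambient air and 0.123, 0.127 and 0.147 in NO. Its log2 change of 1.80 ± 0.17, or 3.49-fold, had an adjusted p of 0.000208 in limma, and normexp gave 0.91. MDAR6, whose product serves chloroplasts and mitochondria, was 1.22-fold higher (adjusted p = 0.00530), and MDAR2 stood at 0.11 ± 0.05 with an adjusted p of 0.0776.

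Of 9 tested genes of ascorbate synthesis, 6 were higher, 1 was lower and 2 did not pass. The shares over all tested genes were 25.8% higher and 32.4% lower. The median log2 change of the 9 was 0.36. Over the 17 other settings 4 to 6 were higher and 0 to 3 lower. VTC4, which encodes the phosphatase that releases L-galactose, was 2.74-fold higher, with relative signals of 2.84, 2.86 and 3.25 in ambient air against 8.50, 8.19 and 7.83 in NO. VTC1, which encodes GDP-mannose pyrophosphorylase, and VTC5, which encodes a GDP-L-galactose phosphorylase, were 1.48-fold and 1.57-fold higher (adjusted p = 0.000131 and 0.000187 in limma). VTC2, the paralog of VTC5 and named after its value was seen, was the 1 that fell, by 0.23 on the log2 scale, or by 0.82 with quantile normalization, where 3 genes were lower, and it passed in all but 1 of the 17.

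For glutathione synthesis, GSH2, which encodes glutathione synthetase, was 1.36-fold higher (adjusted p = 0.00167 in limma). GSH1, which encodes the preceding enzyme, stood at 0.052 ± 0.060 with an adjusted p of 0.483, and its sign turned with quantile normalization and with scaling to the median.

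Of 14 tested genes of other peroxide-removing enzymes (catalases, glutathione peroxidases and plastid peroxiredoxins), 9 were higher, 2 were lower and 3 did not pass. The shares over all tested genes were 25.8% higher and 32.4% lower. The median log2 change of the 14 was 0.50. With quantile normalization 7 were higher and 3 lower, with a median of 0.28. The catalase genes CAT1, CAT2 and CAT3, named with their values known, stood at 0.47, 0.097 and 0.59, and CAT2 did not pass. With quantile normalization they turned to -0.084, -0.46 and -0.031, and CAT2 passed as lower (adjusted p = 0.000809 in limma). The chloroplast peroxiredoxin genes PRXB and PRXQ were 2.07-fold and 1.66-fold higher (adjusted p = 1.32e-05 and 5.55e-05 in limma). The glutathione peroxidase gene GPX6 was 1.66-fold higher. GPX7 and GPX2, further glutathione peroxidase genes, fell by 0.57 and 0.25 on the log2 scale; both were picked for mention with their values known.

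**Figure D4:**
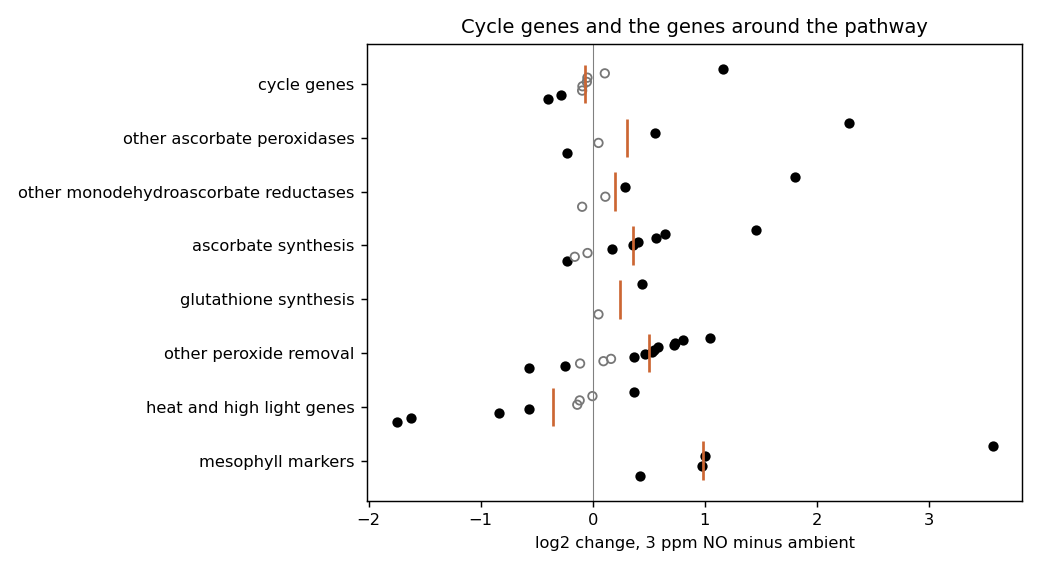
Log2 change from ambient air to 3 ppm NO of each tested gene in the cycle, in lists of related genes and in a list of mesophyll markers; filled circles had an adjusted p under 0.05 and vertical lines are list medians. The median of the cycle genes is -0.071 and that of the mesophyll markers 0.99, with TAPX the single cycle gene past 1.

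Cell type markers also differed between the groups, where 25.8% of all tested genes were higher and 32.4% lower. All 4 mesophyll markers were well above background on every array and were higher in NO, with a summed relative signal of 576 to 628 in ambient air and 950 to 1251 in NO. CA1, a chloroplast carbonic anhydrase gene, was 11.9-fold higher, and LHCB1.3 and RBCS1A, which have near-identical copies, were 2.00-fold and 1.96-fold higher. With the mean of all its probes the log2 change of LHCB1.3 was 2.02 in place of 1.00, and the median of the 4 markers was 1.57 in place of 0.99. The fourth, RCA, was at 0.42 and turned to -0.15 with quantile normalization. Such sums weight each marker by the brightness of its probe. Of 5 vascular markers 3 were higher and 2 lower (summed 15.8 to 16.9 against 17.3 to 18.2). SUC2, 1 of the 2 lower, lost its call in 7 of the 17 other settings. Among these were the settings without ambient replicate 1 or 2 or NO replicate 1 or 3. With the mean of all its probes SUC2 was at -0.038 on the log2 scale (adjusted p = 0.755 in limma). Of 4 guard cell markers 1 was higher and 3 lower. Their sum went from 9.06 to 9.53 in ambient air to 12.7 to 13.9 in NO through GC1 alone (5.29 to 5.64 against 9.78 to 11.0), while FAMA, MYB60 and KAT1 fell by 0.67, 0.33 and 0.19 on the log2 scale. The call of KAT1 was lost in 10 of the 17 other settings, among them those without ambient replicate 2 or 3 and without any single NO array. All 6 flower markers were well above background on every array, and 3 of them were higher and 3 did not pass (0.959 to 1.12 against 1.07 to 1.22). Over the 17 other settings 1 to 3 were higher and 0 to 2 lower. AP3 lost its call in 10 of these, among them those without ambient replicate 1 or 2 and without NO replicate 1 or 3, and it was at -0.041 with normexp. The single vascular, guard cell and flower markers were picked for mention with their values known. Of 4 root markers none could be tested, with 3 of them not well above background on any array (0.0273 to 0.0413 against 0.0256 to 0.0753). What part these cell types have in the change of TAPX or of the other genes was not tested, and in whole leaves a changed share of a cell type and a changed amount of RNA per cell cannot be told apart.

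Genes without a symbol were left out when the genes running most closely with TAPX in log2 value over the 6 arrays were sought. Those found were CSLD5, a cellulose synthase-like gene, ACP4, an acyl carrier protein gene of plastids, and CRB, a chloroplast RNA-binding protein gene. Their Pearson correlations were 0.99996, 0.9996 and 0.9994, and their log2 changes 0.92, 0.75 and 1.06. The 6 points fall into the 2 groups, and 3690 of the 18614 genes had a correlation with TAPX over 0.9.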

How the data were processed

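Per the labels' protocols, RNA of 6 samples (10 ng each) was labelled with Cy3 and hybridised to one-colour Agilent arrays. The deposited intensity values are spot signals that Feature Extraction had background-corrected, which the file headers give as version 10.7.3.1 and the submitters' processing notes as 10.5. The authors' deposited log2 table served as an alternative. Its scale is close to that used here. Its probes are centred on their median, so it holds differences between arrays and not the brightness of probes. On that footing the Pearson r across probes was at least 0.99994 on each array (column medians -0.069 to 0.041). The normalization of that table is not given in the sources used here.

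Log2 processed signals were reduced by the 75th percentile of each array (716 to 1320). Control spots and outlier spots (5 to 18 per array) were left out, spots of a probe were averaged, and 34285 of 43603 probes matched a locus in RefSeq's table for TAIR10.1 by accession. No coordinate is given, because the headers name an older build. A gene was represented by its brightest probe and tested where all 3 arrays of either group showed that probe well above background. Groups were compared with limma 3.58.1 (R 4.3.3), two-sided, Benjamini-Hochberg over all tested genes or probes, threshold 0.05. The scanner files used here have median and no mean spot signals, so normexp (offset 50) took medians.

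The genes of the cycle, the lists and the tests were chosen with earlier results of these data known. The naming rule took all genes of the cycle and up to 3 genes of smallest adjusted p per related list. It also took the 3 genes with a symbol most correlated with the tested cycle gene of largest change. Pairs were compared where both genes were tested. In simulated data drawn from these arrays (18614 genes), 50 genes were given each of the log2 shifts 0.25, 0.5, 1 and 2. The fit called 10%, 64%, 86% and 100% of them, and 6 genes without a shift. In the real comparison 58.2% of genes passed, which makes the Benjamini-Hochberg adjustment less strict there. These shares therefore do not carry over to the real comparison.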

Additional observations from a re-analysis of the deposited data

How the results depend on the processing

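Over the 17 alternatives, TAPX stayed the 1 gene of the cycle called higher, and the lower count was 2 except with quantile normalization (4: APX1, DHAR2, DHAR3 and GR1) and with the source-name numbers as a replicate block (1). The cause was not tested. Signs turned for APX1 with quantile normalization (-0.26) and cyclic loess (-0.012), for SAPX with the mean of its probes (0.077), for MDAR1 with normexp (0.016), and for the difference between APX1 and SAPX with quantile normalization (-0.18; 0.046 with cyclic loess). With quantile normalization DHAR3 passed at -0.16. Probes of the cycle genes called higher numbered 1 in place of 2 with scaling to the median, without the filter on dim probes and with either replicate block. Leaving out 1 array gave 1 to 3 of them. Those called lower numbered 5 with quantile normalization and 1 with the source-name block, in place of 3. They numbered 4 with scaling to the median, and 2 with normexp and without the filter on dim probes. Without 1 array there were 2 to 3 of them.

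Replicates run from 1 to 3 in the titles of both groups, and from 2 to 4 for NO in the source names. These numbers did not mark samples that deviate together (r of -0.080, -0.040 and 0.045 for equal title numbers, 0.020 and -0.12 for equal source-name numbers). As a replicate block, the title numbers kept 1 gene higher and 2 lower. With the source-name numbers all genes called lower numbered 3696 in place of 6033, and DHAR2 was at -0.24 with an adjusted p of 0.105 in limma. In this block only 2 numbers occur in both groups. In this block VTC2, APX6, MDAR6 and GPX2 did not pass either (adjusted p = 0.149, 0.0593, 0.0988 and 0.0764 in limma), and genes of ascorbate synthesis numbered 4 higher and 0 lower. Signal over background limits APX2, whose probe was well above background on 1 of 6 arrays.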
